A study of Arabidopsis thaliana with 3 samples.

Results

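CEPD1 (AT1G06830), CEPD2 (AT2G47880), CEPDL1 (AT3G62960) and CEPDL2 (AT2G47870) encode 4 CC-type glutaredoxins of Arabidopsis thaliana. They were taken by locus from 16505 genes measured under a name, and each has 1 of the 38408 probe sets of the Affymetrix Arabidopsis Gene 1.0 ST array. CEPD1 and CEPD2 were picked out by the study with these arrays, so the directions of both genes are no independent evidence. The arrays hold RNA from vascular strands of cotyledons of 8-day-old seedlings, freed with cell wall enzymes and sonication and picked by hand, with 200 cotyledons pooled per array. There is 1 array each of wild type on plain medium (the control), of wild type grown throughout on medium with 1 µM CEP1 peptide, and of the mutant cepr1-1 on plain medium. All seedlings grew in continuous light on Murashige-Skoog agar. With 1 array per group there is no replicate error and no test, and every difference below is between single arrays.

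Glutaredoxins are small proteins that use glutathione to exchange or reduce disulfide bonds. The CC-type class, named after neighbouring cysteines in its active site, is found in land plants, and several members bind TGA transcription factors. Roots short of nitrate send CEP peptides through the xylem to the shoot, where the receptor kinase CEPR1 perceives them in the vasculature. CEPD1 and CEPD2 polypeptides are known to travel down the phloem to the root, where they raise expression of the nitrate transporter gene NRT2.1. CEPDL2 is known as a related shoot signal that follows the nitrogen status of the leaf.

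The study compared the arrays to find shoot genes that depend on CEP1 and its receptor. Values are log2 probe set values, and each array's median over the measured genes (3.07 for the control, 3.07 with CEP1 and 3.11 in cepr1-1) serves as a floor, because the table holds no background signal. In a comparison, a gene was taken as above the floor where the brighter of its values reached the median of its array. This held for 3 of the 4 genes in each comparison; CEPDL1 was below the median on all 3 arrays. The probe sets have different probes, so no gene's level is set against another's.

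CEPD1 and CEPD2 stood above the control with CEP1 and below it in cepr1-1, CEPDL2 was lower in cepr1-1 alone, and CEPDL1 was about level on the 3 arrays. At 2-fold or more, 2 of the 4 genes were higher with CEP1, where 0.419% of the 8596 genes above the floor were. In cepr1-1, 2 of the 4 were at least 2-fold lower, where 0.567% of 8643 genes were, but the mutant value of one of them, CEPD2, was below its array's median. Between the CEP1 array and cepr1-1, 2 of the 4 were at least 2-fold higher with CEP1, where 1.43% of 8627 genes were. These 3 comparisons share arrays and are not independent of each other. In each, the 2 genes counted are CEPD1 and CEPD2, which were picked out with these arrays. Their counts against the shares are therefore no independent evidence.

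CEPD1, a shoot-to-root signal, had a log2 value of 3.39 in cepr1-1, 7.46 in the control and 9.0 with CEP1. Its signal was above the median of all 3 arrays, but by only 0.29 in cepr1-1 against 4.39 in the control and 5.93 with CEP1. CEPD1 was thus well clear of the floor in both wild-type arrays and near it in the mutant.

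The CEP1 array was 1.54 above the control on the log2 scale, and cepr1-1 was at -4.07. Among genes above the floor, the first difference ranked 13 from the top and the second ranked 1 from the bottom. Between the CEP1 array and cepr1-1 the difference was 5.61, a 48.8-fold span that ranked 2 from the top. On this scale the step from control to CEP1 made up 27.5% of the whole span, so most of it lay between the mutant and the control.

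CEPD2, the other known phloem-mobile signal of the pair, had a log2 value of 1.78 in cepr1-1, 4.06 in the control and 5.79 with CEP1. The arrays stood in the same order as for CEPD1. In the mutant its value was -1.33 relative to the array median, so signal above background is not shown there and only the values are given for that side.

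The difference of CEPD2 with CEP1 was 1.73, a 3.32-fold higher value that ranked 8 from the top. The control value behind it was only 0.98 above its array's median. With a pseudocount of 16 on the linear scale, which damps dim values, both differences shrank. CEPD2 was then at 1.13 with CEP1 and at -0.75 in the mutant, the latter under 2-fold.

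With CEP1, the log2 difference of CEPD1 minus that of CEPD2 was -0.19. For CEPD1 the weight of the mutant in the pattern depends on the scale. On the linear scale CEPD1 was at 10.5 in cepr1-1, 176 in the control and 512 with CEP1, so the step up with CEP1 (336) exceeded the step down in the mutant (165). CEPD2 was at 16.6 in the control and 55.3 with CEP1 on the linear scale. In bulk tissue, fewer cells that express a gene and less of its RNA per cell cannot be told apart.

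CEPDL2, the signal of leaf nitrogen status, had a log2 value of 4.57 in cepr1-1 and 5.33 in the control and with CEP1, the same value on both wild-type arrays to every deposited digit. It was above the median of all 3 arrays. Identical values are common in this table: 71.4% of measured genes had equal values in the control and CEP1 arrays, and 62.3% in the control and cepr1-1. In the mutant CEPDL2 was at -0.76, 1.70-fold lower, ranking 104 from the bottom among genes above the floor, and at -0.50, under 1.5-fold, with the same pseudocount. At 1.5-fold or more, 3 of the 4 genes were lower in cepr1-1, against 1.39% of all measured genes, and 2 of the 4 were higher with CEP1, against 0.994%. Both counts include CEPD1 and CEPD2, which were picked out with these arrays.

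CEPDL1, the remaining CEPD-like gene, had a log2 value of 2.09 in cepr1-1 and 2.12 on both wild-type arrays. Its differences were 0 with CEP1 and -0.02 in cepr1-1. Relative to the array medians it was at -0.95 in both wild-type arrays and at -1.01 in the mutant, so these values do not show whether the gene was expressed.

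**Figure D1:**
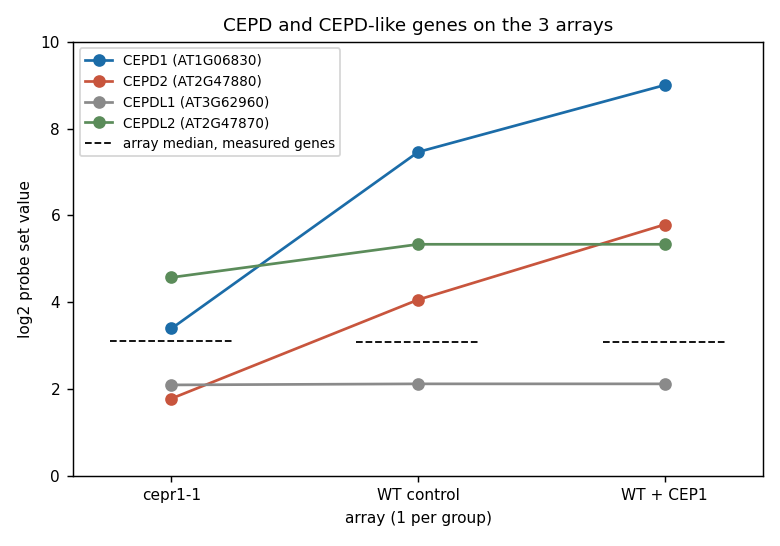
Log2 probe set values (y axis) of the 4 genes on each array (x axis, 1 array per group), with dashed lines at each array's median over measured genes and lines joining the values of a gene. CEPD1 goes from 3.39 in cepr1-1 to 9.0 with CEP1 and CEPD2 from 1.78 to 5.79, while CEPDL2 stays between 4.57 and 5.33 and CEPDL1 stays under the medians.

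The pair of differences from the control was used to find the named genes most like each member. The measure was the Euclidean distance between pairs of log2 differences, over 3 arrays and 8545 other genes above the floor in both comparisons. Both differences contain the same control array. For CEPD1 the nearest gene was AT3G46880, at a distance of 1.23, followed by AT3G24230 (1.41), AT5G46871 (1.65), CEPD2 (1.80) and AT1G67860 (2.10). Of these, AT5G46871 and CEPD2 were below the array median in cepr1-1, at 2.05 and 1.78, so their distances and places describe the deposited values only. All 5 were less far below the control in the mutant than CEPD1. This was fixed in advance, because the difference of CEPD1 ranked 1 from the bottom there. AT3G46880 was at 6.33 in the control, 7.98 with CEP1 and 3.49 in cepr1-1, a difference of -2.84 in the mutant against -4.07 for CEPD1.

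The same limit holds for CEPD2 itself, for which the nearest were AT1G67860, at 0.52, and AT3G46880, at 0.57. AT3G24230 (0.80), the glycosyltransferase gene UGT73B5 (0.82) and CLE44 (0.93), which encodes a peptide that restrains xylem formation, came next. CLE44 too was below the median in cepr1-1, at 2.15. AT1G67860 was at 8.15 in the control, 9.45 with CEP1 and 6.17 in cepr1-1. CEPD1 was not among the 5 nearest of CEPD2, although CEPD2 was among those of CEPD1. For CEPDL2 the distances were far smaller, from 0.0082 for AT3G49350 to 0.026 for AT5G60700, with AT1G09820, AT3G28960 and AT5G54710 between. These genes too were level, or within 0.01, between the wild-type arrays and lower in cepr1-1, by differences of -0.74 (AT5G60700) to -0.78 (AT5G54710). AT3G28960, AT5G54710 and AT5G60700 were below the median there, at 2.44, 2.72 and 2.72. Because 71.4% of measured genes had equal values in the control and CEP1 arrays, many genes share the CEP1 difference of CEPDL2. Its small distances therefore do not show closer partners than those of CEPD1 or CEPD2.

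**Figure D2:**
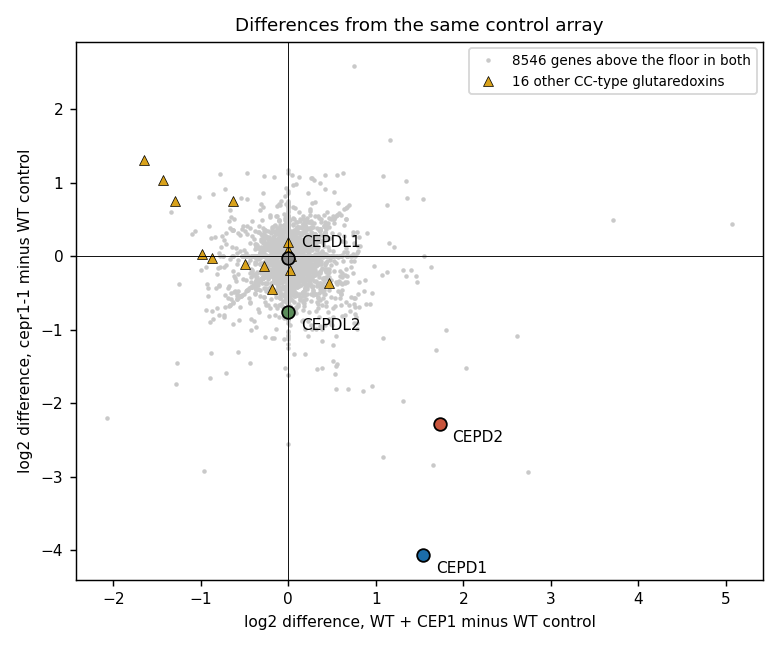
Each point is a gene, with its log2 difference of CEP1 minus control (x axis) and of cepr1-1 minus control (y axis). Grey points are the 8546 genes above the floor in both comparisons, triangles are the 16 other CC-type glutaredoxins measured, and circles are the 4 CEPD and CEPD-like genes. CEPD1, at 1.54 and -4.07, is the lowest point of the plot, and CEPD2 is at 1.73 and -2.28, the latter against a mutant value below its array's median.

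Among the rest of the CC-type class, the genes that were 1.5-fold apart from the control stood on the other side of it. Of 17 further CC-type loci, 16 are measured under a name. With CEP1, 0 of the 16 were higher and 6 lower by 1.5-fold or more, against 0.994% higher and 0.836% lower of all measured genes. In cepr1-1, 4 of the 16 were higher and 0 lower, against 1.58% and 1.39%. The median difference of the 16 was -0.23 with CEP1 and 0 in cepr1-1, and that of all measured genes was 0 in both. AT1G03020 was at 7.53 in cepr1-1, 6.23 in the control and 4.58 with CEP1, and AT3G21460 was at 6.45, 5.41 and 3.98. The order of the arrays for both was the reverse of that for CEPD1 and CEPD2.

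AT3G62950 and AT3G62930 were ordered in the same reversed way. AT3G62950 was at 4.0 in cepr1-1, 3.26 in the control and 1.97 with CEP1, the last below the array median, and AT3G62930 was at 4.64, 3.89 and 3.27. On the control array they were the dimmest of the 6 genes that were lower with CEP1. With the pseudocount of 16, which damps dim values, 4 of the 16 were 1.5-fold lower with CEP1 and 2 higher in cepr1-1. AT4G15660 (-0.98) and AT4G15680 (-0.87) were lower with CEP1 and differed from the control by 0.02 and -0.03 in the mutant. They belong to a run of adjacent copies that did not all go this way. With CEP1, AT4G15670 was at -0.49, AT4G15700 at 0.04 and AT4G15690, below the medians, at 0. Signal shared between copies was not tested. Between the CEP1 array and cepr1-1, 6 of the 16 were at least 1.5-fold lower with CEP1, against 2.22% of all measured genes. In that comparison 1 of the 16, AT5G11930, was higher, against 2.19%, with a difference of 0.83 and values below the median on all 3 arrays.

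**Figure D3:**
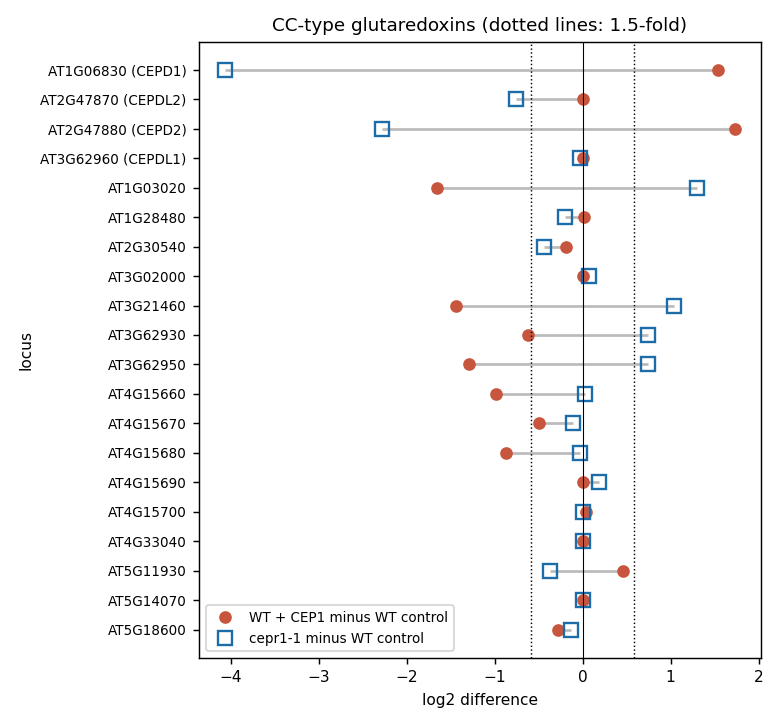
Log2 differences from the control (x axis) for the 20 CC-type glutaredoxins measured (y axis), with circles for CEP1 and squares for cepr1-1. Dotted lines mark 1.5-fold. CEPD1 and CEPD2 have the circle to the right and the square to the left, and AT1G03020, AT3G21460, AT3G62930 and AT3G62950 have them the other way around.

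Of 10 listed glutaredoxins of the other classes 5 were measured, and 0 were 1.5-fold apart in any of the 3 comparisons. With shares of 0.836% to 2.22% over all measured genes, 0 of 5 is near the background. GRXC2 was at 6.16 on both wild-type arrays and differed by -0.57 in cepr1-1, GRXC1 differed by 0.06 in both comparisons, and AT5G20500 by 0 and -0.03. Upstream of the CEPD genes, 8 of 9 listed CEP peptide genes were measured, of which 1 was above the floor, and 0 were 1.5-fold apart, again near the background. The gene above the floor, CEP9 (AT3G50610), was at 3.50 in the control and in cepr1-1 and at 3.17 with CEP1. AT1G16950 (1.78, 1.38 with CEP1 and 1.64 in cepr1-1) and CEP4 (AT2G35612, 2.02, 2.21 and 2.21) were under the medians. Downstream, CEPH (AT4G32950), a root phosphatase gene induced by CEPD proteins that activates NRT2.1 protein, was at 2.20 on all 3 arrays, below their medians. The listed receptor, TGA and TOPLESS genes, which carry the signal between peptide and glutaredoxin or bind the glutaredoxins, are not reported, since none is among the measured genes.

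CEPD2 and CEPDL2 are neighbours in the RefSeq gene order of chromosome 2 (assembly TAIR10.1, used for gene order only). In the wild type CEPD2 was 1.73 higher with CEP1, where CEPDL2, like 71.4% of measured genes, had equal values. With ties so common, an equal value does not show that a gene lacked a response. In the mutant CEPDL2 was at -0.76, and CEPD2 was at 1.78 against 4.06 in the control, the first below its array's median. The next measured genes on either side, AT2G47860 (3.82) and AT2G47890 (4.59), were level on the 3 arrays. A protein-coding gene that overlaps CEPD2, AT2G47885, has no named probe set here, and whether the CEPD2 probes read its RNA too was not tested.

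CEPDL1 lies next to AT3G62950 on chromosome 3. Its differences of 0 and -0.02 stood beside -1.29 and 0.74 for that neighbour. CEPDL1 was below the median on all 3 arrays, so its level values do not show a lack of response. The value of AT3G62950 with CEP1, 1.97, was below the median too. Around CEPD1 on chromosome 1, AT1G06840 was at 4.85 in the control and cepr1-1 and at 4.92 with CEP1, and AT1G06810, under the medians, was at 1.59 on all 3 arrays. AT1G06890 was at 6.70 on all 3 arrays. The values of these neighbours did not show the differences of CEPD1, but equal values are common here and do not show that a gene lacked a response.

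**Figure D4:**
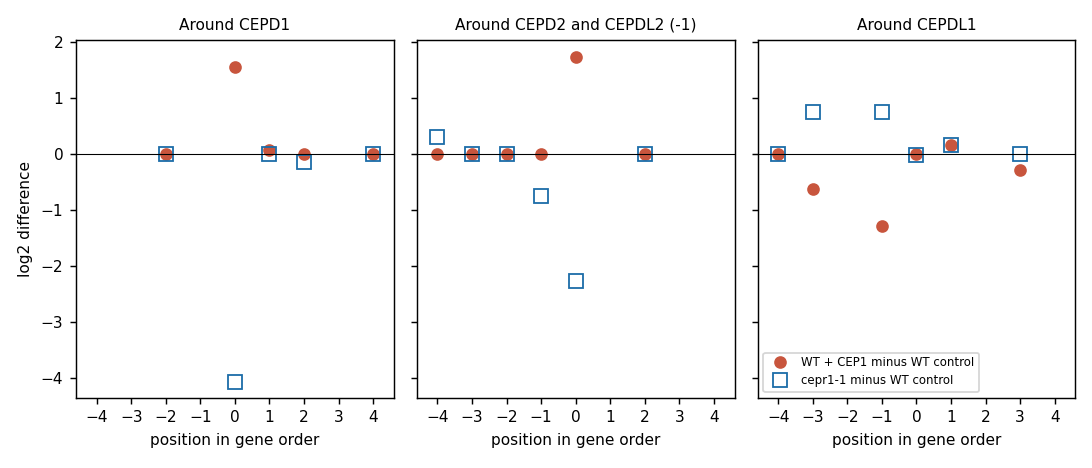
Log2 differences from the control (y axis) for the measured genes up to 4 positions before and after each gene in chromosome order (x axis, 0 is the gene named above the panel), with circles for CEP1 and squares for cepr1-1. The measured neighbours of CEPD1 and CEPD2 other than CEPDL2 lie between -0.14 and 0.30, and AT3G62930 and AT3G62950 stand apart around CEPDL1.

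Marker genes of the labelled tissue are described next. All 3 arrays are of vascular strands, so enrichment over other tissue cannot be judged from them. Of 10 phloem markers 3 are measured. The phloem sugar exporter gene SWEET11 was at 11.5 on each array, CLE41 was at 7.93 in the control, 8.31 with CEP1 and 7.96 in cepr1-1, and OPS was at 2.91 on all 3, below the medians. No listed xylem or procambium marker has a named probe set here. Summed on the linear scale, the phloem markers were at 3094 in the control, 3223 with CEP1 and 3220 in cepr1-1, a sum made up mostly of SWEET11. Whether the share of phloem in the tissue differed between arrays was not tested.

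Markers of other leaf cells were present. The 3 measured mesophyll markers of 8 summed to 960 in the control, 892 with CEP1 and 1186 in cepr1-1, and the mutant's differences were 0.69 for SBPASE, 0.21 for RCA and -0.03 for PRK. Of 7 listed markers of epidermis and guard cells, only the guard cell genes AT1G22690 and FMA were measured. These 2 summed to 759, 478 and 581, with differences of -0.68 and -0.51 with CEP1 and -0.41 and 0 in cepr1-1. None of these 5 genes was below an array median. The mesophyll sum, made up mostly of RCA, thus stood in the reverse order to CEPD1 and CEPD2. With CEP1 the differences were small, at -0.12 for RCA, -0.10 for SBPASE and 0 for PRK, and PRK did not follow that order. The part of mesophyll in the differences of CEPD1 and CEPD2 was not tested. The genotype label could not be checked, because CEPR1 has no named probe set here, and the sources used here do not give the ecotypes of wild type and mutant.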

How the data were processed

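The authors deposited a log2 value for each probe set on each array. Per the submitters' processing notes, Affymetrix Expression Console 1.3 was used. The log2 scale was read from the values, and the sources used here do not give the background correction, normalization or probe summary. Background signal is not known, and the number of arrays limits the precision.

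Probe sets with 1 gene in the platform annotation (16722 of 38408) were matched to RefSeq's TAIR10.1 gene table, 16574 by gene ID and 96 by locus, and 52 without a match were left out. Where a locus had several probe sets, the one brightest on average was used. Differences and counts were computed with pandas 2.3.3 and trend removal with statsmodels 0.14.6. The counting was tested on simulated data.

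The members and lists were chosen with earlier results of these data known. Named genes are the 4 members, other CC-type glutaredoxins 1.5-fold apart from the control in either comparison, up to 3 genes with the largest differences of each other list, and the 5 genes nearest to each member above the floor. Neighbouring genes, AT4G15670, AT4G15690, AT4G15700, AT5G11930 and CEPH, whose list has 1 measured gene, were also given. All of these except CEPH were added after their values were seen. Protein and promoter sequences were not analysed here.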

Additional observations from a re-analysis of the deposited data

How the results depend on the processing

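The differences of the 4 members and the counts were recomputed with quantile normalization, median centring, removal of the trend with intensity, a pseudocount of 16 and the mean of a locus's probe sets, and the counts also with no floor and with a floor at the 75th percentile, which leave a member's difference as it is. A difference was taken as moved where it shifted by a factor of 1.5 or more in fold change, and a count where it changed by more than 1.5 times. By this rule 143 values stayed and 31 moved, and no member's difference of 1.5-fold or more changed sign. Much of this was fixed in advance. Each member has 1 probe set, so the mean of probe sets left its differences as they were, and a pseudocount cannot change a sign. Median centring shifted differences by 0 with CEP1 and by -0.035 in cepr1-1. The pseudocount, which shrinks dim values by construction, moved CEPD1 in cepr1-1 to -2.86 and between CEP1 and cepr1-1 to 4.32, and moved CEPD2 to 1.13 with CEP1, -0.75 in cepr1-1 and 1.87 between CEP1 and cepr1-1. CEPD2 was then no longer 2-fold lower in the mutant. CEPDL2 in cepr1-1 ranged from -0.80 to -0.50, the last also with the pseudocount and under 1.5-fold. Of the other CC-type glutaredoxins, 4 were 1.5-fold lower with CEP1 under the pseudocount, against 6 without it. Under it 2 were 1.5-fold higher in cepr1-1, and 0 were higher between CEP1 and cepr1-1. With the pseudocount, genes 2-fold higher and lower numbered 18 and 2 with CEP1, 2 and 14 in cepr1-1, and 60 and 9 between CEP1 and cepr1-1. At 1.5-fold these counts were 51 and 28, 22 and 81, and 163 and 49. Without a floor, 22 genes were 2-fold lower with CEP1, 54 were 2-fold and 260 were 1.5-fold higher in cepr1-1, and 367 were 1.5-fold lower between CEP1 and cepr1-1. With the higher floor, 23 genes were 2-fold higher, 7 were 2-fold lower and 49 were 1.5-fold lower with CEP1. In cepr1-1 there were then 13 genes 2-fold higher, 32 genes 2-fold lower and 42 genes 1.5-fold higher. Between CEP1 and cepr1-1, 26 were 2-fold and 79 were 1.5-fold lower. No paired analysis was possible because each group has 1 array, and for the same reason no replicate could be left out.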
